A study of Mus musculus with 6 samples.

Results

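The genes examined here encode RNA-binding proteins that set how neural cells splice, stabilise and translate their messages: Musashi (Msi1, Msi2), neuronal Hu/ELAV (Elavl2, Elavl3, Elavl4), polypyrimidine tract-binding (Ptbp1, Ptbp2) and Rbfox (Rbfox2, Rbfox3) proteins, and Quaking (Qk). They were taken as the probe sets annotated to exactly 1 gene, that gene being 1 of the 10 named. All 10 genes were found, with 41 of the 45101 probe sets of the array, among 18193 genes with such a probe set.

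Activated and quiescent neural stem cells had been sorted from the ventricular-subventricular zone of adult mice, the neurogenic layer along the lateral ventricles. Both populations carried green fluorescent protein under the GFAP promoter (GFAP::GFP) and the surface protein CD133, and lacked CD24. Activated cells also carried the EGF receptor (EGFR). The 3 arrays of each population are described as biological replicates. The labels used here state no strain, sex, exact age or number of animals per array, so p-values measure only the spread between these arrays. Because the reporter follows GFAP promoter activity, the cells are those in which that promoter was or had been active, and each array averages over all sorted cells.

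Musashi proteins bind messages in stem and progenitor cells and control their translation. PTBP1 represses neuron-specific exons in dividing progenitors, including one whose skipping destabilises the message of its neuronal relative PTBP2, and PTBP2 takes over as neurons form. The neuronal Hu proteins stabilise and splice messages in newborn and mature neurons, RBFOX3 is the antigen known as NeuN, and Quaking isoforms, which differ at their C-terminal ends, act in glia and oligodendrocytes.

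Values are log2 MAS5 signals. A difference is the activated mean minus the quiescent mean of those log2 values, ± the standard error (SE) of a limma fit over all 11575 genes or 27022 probe sets bright enough to be tested (n = 3 arrays per group). Each gene is represented by its brightest probe set, and calls required an adjusted p (Benjamini-Hochberg) below 0.05. Signals of different probe sets are not compared as levels, since each has its own brightness. Array background, read from 27 bacterial control probe sets, lay between 4.52 and 4.67 on activated arrays and between 5.45 and 6.10 on quiescent arrays.

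Promoter stretches are shown for Elavl3 and Elavl4, the Hu genes with a CAGCTG motif before a start, and for Qk, of which 5 of 7 probe sets fell. RefSeq windows of build GRCm38.p6, from 250 bases before to 50 after a transcript start, were found for 8 of the 10 members, with Msi1 and Rbfox2 unmatched. The 250 bases before the start are printed 5′ to 3′, with capitals marking CAGCTG, a palindromic E-box bound by proneural factors. For Elavl4 the window shown belongs to a start downstream of its first.
Elavl3, chr9:22052024-22052273, strand -: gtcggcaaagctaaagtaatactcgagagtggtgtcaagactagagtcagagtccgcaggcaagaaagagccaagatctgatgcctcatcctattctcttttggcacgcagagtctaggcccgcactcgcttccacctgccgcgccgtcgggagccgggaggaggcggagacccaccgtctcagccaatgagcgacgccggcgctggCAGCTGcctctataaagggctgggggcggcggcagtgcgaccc
Elavl4, chr4:110287528-110287777, strand -: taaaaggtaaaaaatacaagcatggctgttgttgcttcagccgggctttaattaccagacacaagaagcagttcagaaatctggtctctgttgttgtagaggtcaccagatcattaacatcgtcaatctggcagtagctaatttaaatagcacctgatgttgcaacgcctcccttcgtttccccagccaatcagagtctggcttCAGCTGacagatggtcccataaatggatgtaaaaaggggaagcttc
Qk, chr17:10319362-10319611, strand -: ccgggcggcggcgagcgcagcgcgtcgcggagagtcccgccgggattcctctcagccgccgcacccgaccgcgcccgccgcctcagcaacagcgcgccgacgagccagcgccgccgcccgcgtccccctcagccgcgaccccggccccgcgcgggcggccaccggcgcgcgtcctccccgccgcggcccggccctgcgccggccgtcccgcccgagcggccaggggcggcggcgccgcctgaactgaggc
CAGCTG began 43 bases before the start of Elavl3 and 46 bases before that of Elavl4. It was also found in windows of Elavl2 and Ptbp1, after the start, so that 4 of the 8 genes held it, against 18.3% of the 27025 genes with a window. These gene shares are not alike, since the 8 members had 18 windows and the 27025 genes had 32851, so a member had more windows to search. Some windows of a gene overlap, and the 7 of 18 member windows with the motif held 5 distinct sites (16.3% of all 32851 windows held it). The stretch of Qk held none, and 84.8% of its bases were G or C, against 61.6% for Elavl3 and 44% for this start of Elavl4. The E2F-type motifs TTTCCCGC and TTTGGCGC, searched on both strands, were in 0 of the 18 windows and in 1.07% and 0.514% of all windows. These matches describe letters only.

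Some technical measures lay apart between the groups, and their part in the differences was not tested. Hybridisation controls averaged 13.69 ± 0.05 log2 units on activated arrays and 14.33 ± 0.53 on quiescent arrays (SD, n = 3 each). The 3′ minus 5′ Gapdh signal, a measure of RNA integrity, was 1.19 to 1.51 on activated arrays and 1.54 to 2.59 on quiescent arrays. Each had a two-sided exact permutation p of 0.1, the smallest that 3 arrays against 3 allow. The same measure for actin overlapped, at -0.11 to 0.20 on activated arrays and -0.24 to 0.07 on quiescent arrays (exact permutation p = 0.4). Scaling to the hybridisation controls moved the median difference of all genes to 0.66, against 0.01 as deposited, so differences are relative to the deposited scaling. Among the genes of the sort, Egfr was 2.11 ± 0.24 higher in activated cells, and Cd24a was 4.13 ± 0.50 higher although both gates took CD24-negative cells. Gfap fell by 4.18 ± 0.58 and Prom1, which encodes CD133, by 1.22 ± 0.32 (adjusted p = 0.0133, 0.0594 without activated array 1 and 0.0551 without quiescent array 2). After scaling to the hybridisation controls Prom1 differed by -0.58 (adjusted p = 0.309).

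Of the 10 members, 4 rose in activated cells and 0 fell, with a median difference of 1.08. In the same limma fit 34.9% of all genes were called, 17.3% higher and 17.6% lower, and the median of all genes was 0.01. At an unadjusted p under 0.05, 6 members were higher and 1 lower, against 46.0% of all genes, with 23.0% higher and 23.0% lower. The 3 arrays of one group lay apart from those of the other for 7 of the 10 members, 6 higher and 1 lower in activated cells, against 50.7% of all genes, with 25.1% higher and 25.5% lower. The members that rose were Elavl2, Elavl4, Rbfox3 and Ptbp1. Rbfox3 passed the brightness filter only through its activated arrays (quiescent mean 4.32, limit 6.02), so its place in these counts supports nothing. At probe set level 37 of the 41 were bright enough to be tested, and 12 rose and 6 fell, which is 48.6% of those tested against 31.0% of all probe sets, with 14.4% higher and 16.7% lower. Groups lay apart for 21 of these 37, 13 higher and 8 lower, against 47.4% of all probe sets, with 21.9% higher and 25.5% lower. The 6 that fell were 5 of Qk and 1 of Msi2. Among those that rose, Rbfox3 1436450_at and Elavl2 1421881_a_at (quiescent means 4.32 and 5.93) passed the filter only through their activated arrays. Their place in the probe set counts supports nothing.

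**Figure D1:**
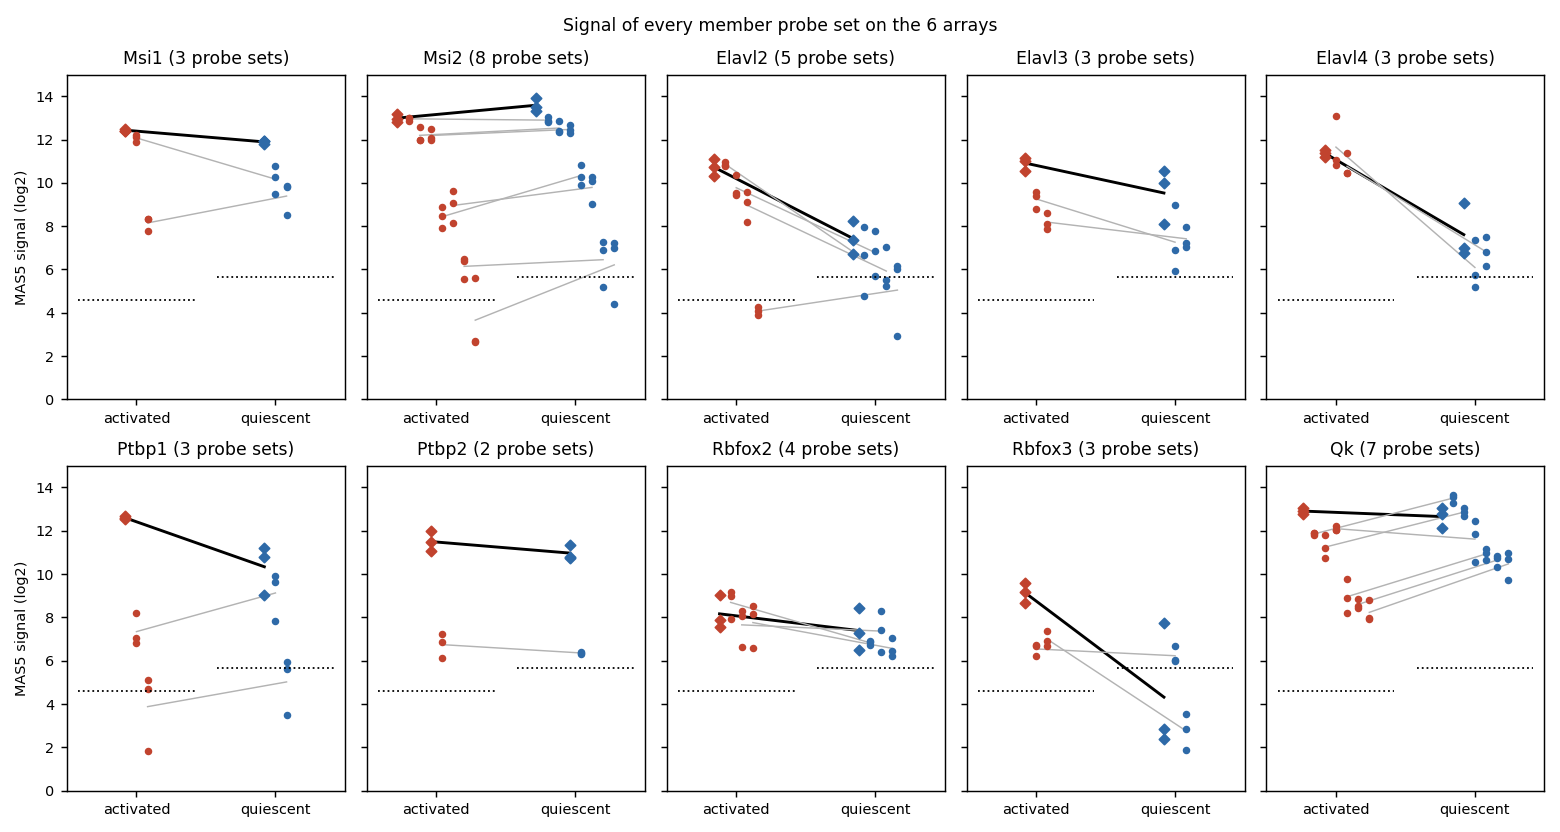
Each panel gives the log2 MAS5 signal of every probe set of a gene on the activated (red, left) and quiescent (blue, right) arrays, joined through the group means; diamonds and black lines mark the brightest probe set and dotted lines the mean background of each group. Elavl2, Elavl4 and the brightest Rbfox3 probe set lie nearer background on quiescent arrays, while 5 of the 7 Qk lines climb toward the quiescent side.

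The Hu genes Elavl2 and Elavl4, which encode the neuronal proteins HuB and HuD, were 9.78-fold and 13.5-fold higher in activated cells. Elavl4 read 11.52, 11.19 and 11.39 on activated arrays 1 to 3, against 6.98, 9.09 and 6.76 on quiescent arrays 1 to 3. The groups did not overlap, and quiescent array 2 stood above the other quiescent arrays. The difference was 3.76 ± 0.56, or 13.5-fold (adjusted p = 0.000644). Its other probe sets differed by 5.56 ± 0.69 and 3.94 ± 0.47, so all 3 rose (adjusted p from 0.000225 to 0.000707 over probe sets). The larger of these differences, in 1450258_a_at, came with 11.06, 10.81 and 13.08 on activated arrays and 1 quiescent array at background. It was 4.84 without activated array 3. Without quiescent array 2 the difference of the brightest was 4.50.

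Elavl2 read 11.12, 10.72 and 10.33 on activated arrays, against 7.34, 8.25 and 6.71 on quiescent arrays, with no overlap and with array 2 again highest among the quiescent ones. The difference was 3.29 ± 0.46, or 9.78-fold (adjusted p = 0.000445). Of its 5 probe sets, 4 were tested and all 4 rose, by 2.99 to 4.40, and 3 of them were at background on 1 or 2 quiescent arrays. Probe set 1421881_a_at (quiescent mean 5.93) passed the brightness filter only through its activated arrays, so its rise adds no support. The probe set not tested, 1433052_at, was at background on all 3 activated arrays and 1 quiescent array.

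Elavl3, which encodes HuC, was not called. Its brightest probe set read 11.15, 11.03 and 10.57 on activated arrays and 9.98, 8.08 and 10.54 on quiescent arrays. The groups did not overlap, but quiescent array 3 came close to activated array 3. The difference was 1.38 ± 0.55 (adjusted p = 0.0721), and 1.89 without quiescent array 3 (adjusted p = 0.0139) but 0.66 without quiescent array 2 (adjusted p = 0.181). A dimmer probe set, 1455484_at, passed narrowly at 2.00 ± 0.69 (adjusted p = 0.0493) although its groups overlapped. Leaving out any one of the other 5 arrays ended that call (adjusted p from 0.077 to 0.154), while it held without quiescent array 3 (adjusted p = 0.00237).

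Rbfox3, a splicing regulator of postmitotic neurons, was called higher in activated cells. Probe set 1436450_at read 8.66, 9.20 and 9.59 on activated arrays and 7.76, 2.83 and 2.38 on quiescent arrays. Quiescent arrays 2 and 3 were at background and quiescent array 1 was not, so the size of the difference is poorly fixed. It was 4.82 ± 1.20 (adjusted p = 0.0106), 2.92 when values were raised to background, and between 3.85 and 6.54 with single arrays left out, the highest without quiescent array 1. Probe set 1427286_at was too dim to be tested: its quiescent arrays were all at background, and its activated mean of 7.00 makes it at least 2.51-fold higher. Probe set 1456149_at differed by 0.31 ± 0.61 (adjusted p = 0.722). All 3 probe sets were above background on every activated array, and 1436450_at and 1427286_at were at background on 2 and 3 of the quiescent arrays.

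Its relative Rbfox2, which is active in many tissues, was not called from its brightest probe set. That probe set read 9.03, 7.57 and 7.90 on activated arrays and 7.27, 8.43 and 6.49 on quiescent arrays, with overlapping groups and a difference of 0.77 ± 0.62 (adjusted p = 0.354). Of the other 3 probe sets 1 rose: 1418247_s_at read 9.16, 7.92 and 9.00 on activated arrays and 6.87, 6.92 and 6.73 on quiescent arrays, a difference of 1.86 ± 0.50 (adjusted p = 0.0179). It no longer passed without activated array 1 (adjusted p = 0.0818) or without activated array 3 (adjusted p = 0.0787).

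Markers of neuroblasts and immature neurons moved in the direction of Elavl2 and Elavl4, while those of mature neurons moved in both directions. Of 15 tested genes of neuroblasts and immature neurons 9 rose and 0 fell (12 and 0 at an unadjusted p under 0.05), with a median difference of 2.66. Their summed linear signal was 55935 to 66567 on activated arrays and 14155 to 19022 on quiescent arrays, where array 2 was highest. Dlx6, a homeobox factor of interneuron precursors, was at least 6.30-fold higher and at background on all quiescent arrays. Dlx6, Igfbpl1 and Sp8 passed the brightness filter only through their activated arrays, so their place in these counts supports nothing. Of all genes, 17.3% were called higher and 17.6% lower. Of genes of mature neurons 1 of 9 tested rose and 3 fell, with sums of 9599 to 12430 on activated and 11856 to 18550 on quiescent arrays, and Nefm was at background on all quiescent arrays. Ppp1r1b, a striatal neuron gene, had the largest difference among them and fell by 5.16 ± 0.75 (adjusted p = 0.000564), with 1 activated array at background. It passed the brightness filter only through its quiescent arrays, and Syn1, the gene that rose, only through its activated arrays. Proliferation genes rose in 9 of 9 cases, with sums of 61087 to 67238 on activated arrays and of 6241, 13871 and 4913 on quiescent arrays 1 to 3. The mitotic kinase gene Bub1 differed by 6.51, or by 4.18 with values raised to background, since 2 quiescent arrays were at background. It passed the brightness filter only through its activated arrays. Bulk arrays cannot tell fewer cells of a type from less RNA per cell, and the part of these markers in the member differences was not tested.

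**Figure D2:**
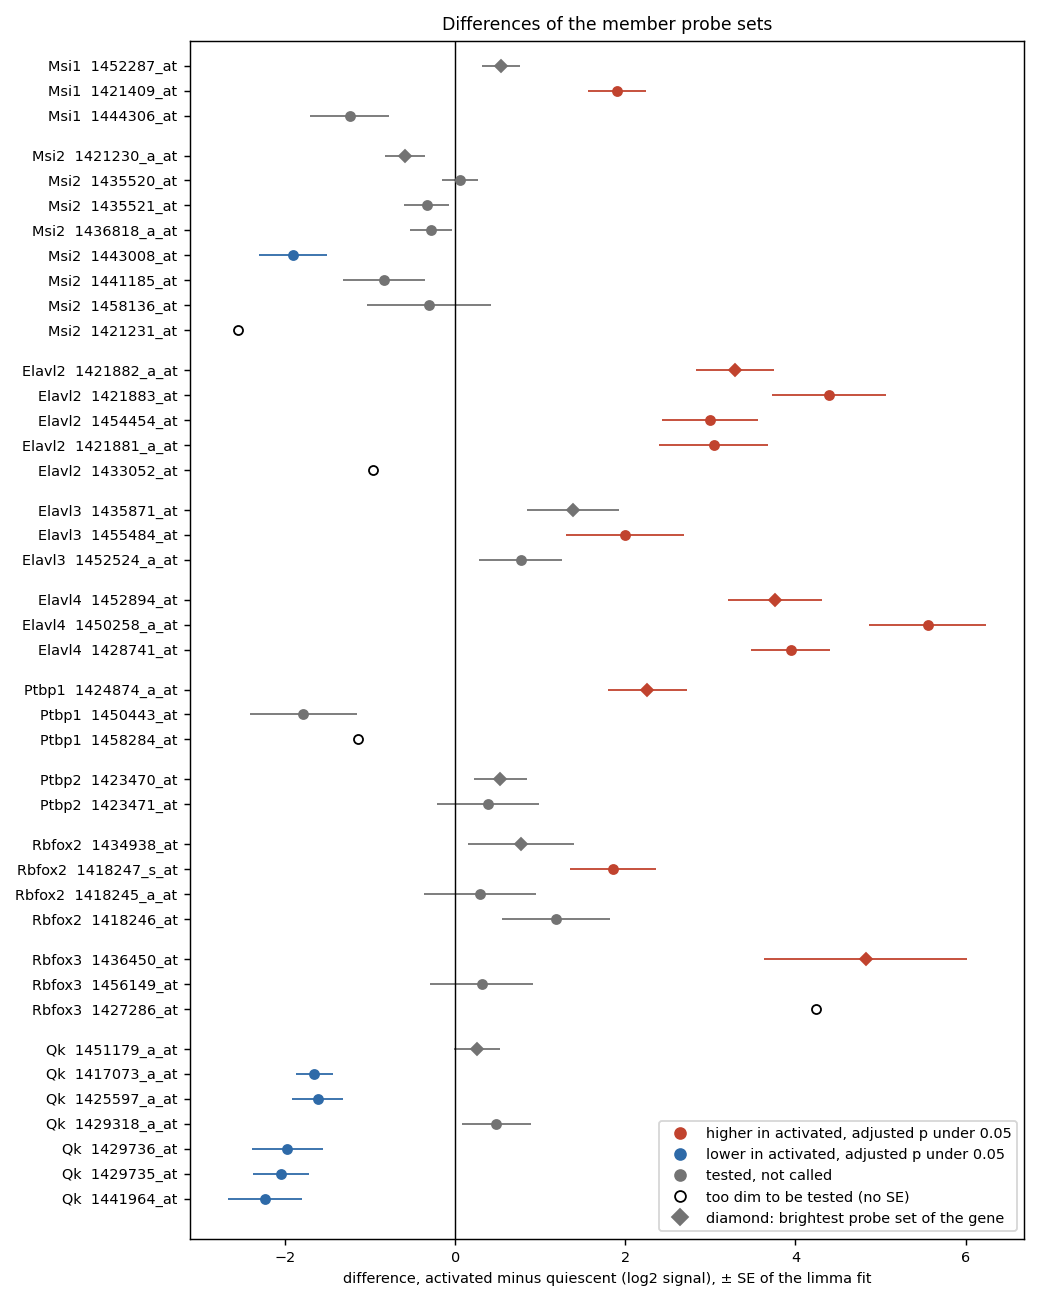
Points give activated minus quiescent log2 signal of each probe set with the SE of the limma fit, and open points are probe sets too dim to be tested. All tested Elavl2 and Elavl4 probe sets lie near 3 or beyond, while those of Msi1, Ptbp1 and Qk fall on both sides of 0.

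Ptbp1, the repressor of neuronal exons, was higher in activated cells by its brightest probe set. Probe set 1424874_a_at read 12.67, 12.58 and 12.54 on activated arrays and 10.78, 9.05 and 11.19 on quiescent arrays, where array 2 was the lowest of all. The difference was 2.26 ± 0.47, or 4.78-fold (adjusted p = 0.00427), and 1.61 without quiescent array 2. A dimmer probe set, 1450443_at, had a difference of opposite sign, with 8.21, 6.80 and 7.03 on activated arrays and 9.66, 9.90 and 7.84 on quiescent arrays. Its difference was -1.78 ± 0.63 (adjusted p = 0.0513), which passed without quiescent array 3 (adjusted p = 0.00627) or activated array 1 (adjusted p = 0.0424). The third, 1458284_at, was at background on 1 array of each group and not tested. The rise of Ptbp1 therefore rests on 1 probe set, and the mean of its probe sets differed by -0.22 (adjusted p = 0.647).

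Ptbp2 was not called. It read 11.98, 11.06 and 11.47 on activated arrays and 10.76, 11.36 and 10.80 on quiescent arrays. The groups overlapped, with quiescent array 2 above activated array 2, and the difference was 0.53 ± 0.31 (adjusted p = 0.209). The second probe set differed by 0.38 ± 0.60 (adjusted p = 0.653). Within arrays, the signal of Ptbp2 minus that of Ptbp1 was -0.69, -1.52 and -1.07 on activated arrays and -0.02, 2.31 and -0.39 on quiescent arrays. The groups did not overlap, and this within-array contrast, which a constant scaling of whole arrays cannot move, changed by -1.73 in activated cells (two-sided exact permutation p = 0.1, adjusted p = 0.3 over 6 pairs). With the mean of each gene's probe sets it was 0.68 higher.

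The 2 Musashi genes had differences of opposite sign, and neither was called. Msi1, a marker of neural stem and progenitor cells, read 12.39, 12.49 and 12.41 on activated arrays and 11.95, 11.93 and 11.79 on quiescent arrays. The groups did not overlap, and the difference of 0.54 ± 0.23 did not pass (adjusted p = 0.0857). A second bright probe set, 1421409_at, read 11.88, 12.23 and 12.12 on activated arrays and 10.25, 9.48 and 10.78 on quiescent arrays. It rose by 1.91 ± 0.34, or 3.75-fold (adjusted p = 0.00214). The dimmest, 1444306_at, read 8.32, 8.35 and 7.77 on activated arrays and 9.80, 9.86 and 8.51 on quiescent arrays, a difference of -1.24 ± 0.46 (adjusted p = 0.0648). That difference passed without quiescent array 3 (-1.68, adjusted p = 0.00971).

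Msi2, the broadly expressed relative, was bright in both groups. Its brightest probe set read 13.20, 12.97 and 12.80 on activated arrays and 13.51, 13.90 and 13.34 on quiescent arrays. The groups did not overlap, and the difference of -0.60 ± 0.24 did not pass (adjusted p = 0.0808), but did without quiescent array 3 (-0.72, adjusted p = 0.022). The next 3 in brightness differed by 0.06, -0.34 and -0.28 with overlapping groups. Of the remaining 4, 1443008_at fell by 1.90 ± 0.40 (adjusted p = 0.005), with 8.90, 7.92 and 8.48 on activated arrays and 9.92, 10.84 and 10.25 on quiescent arrays. The others differed by -0.83 and -0.31 without a call, and 1 was too dim to be tested. Msi1 minus Msi2 within arrays was -0.80, -0.47 and -0.40 on activated arrays and -1.56, -1.98 and -1.55 on quiescent arrays, a contrast 1.14 higher in activated cells (two-sided exact permutation p = 0.1, adjusted p = 0.3).

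**Figure D3:**
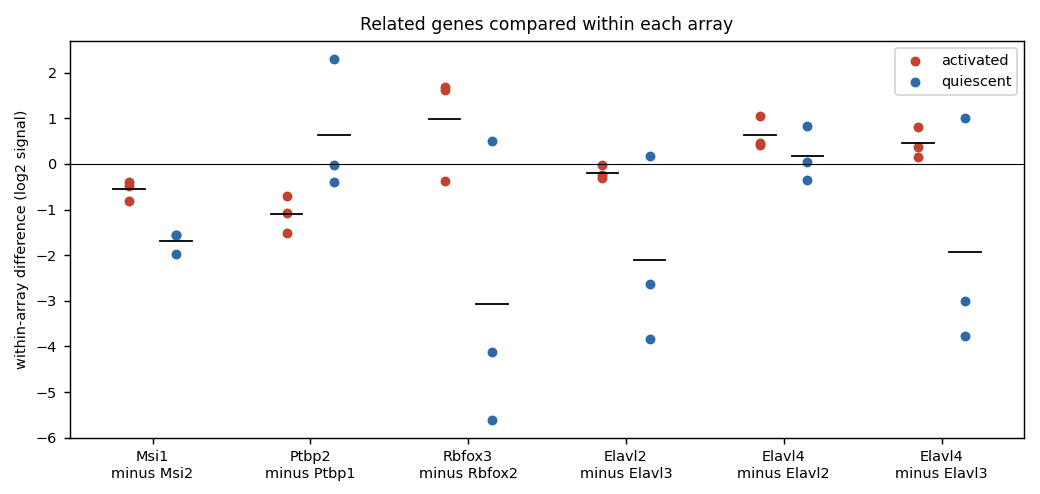
Each point is the difference in log2 signal between the brightest probe sets of 2 related genes on one array, with bars at the group means, activated in red and quiescent in blue. Groups are separate for Msi1 minus Msi2 and Ptbp2 minus Ptbp1 and overlap for the other 4 pairs.

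The remaining contrasts overlapped between groups. Rbfox3 minus Rbfox2 was 4.05 higher in activated cells (exact permutation p = 0.2), Elavl2 minus Elavl3 1.91 higher, Elavl4 minus Elavl3 2.37 higher and Elavl4 minus Elavl2 0.47 higher (exact permutation p = 0.4 for each). Their adjusted p was 0.4. With the mean of probe sets Elavl4 minus Elavl2 was 1.87 higher (exact permutation, adjusted p = 0.15 over the 6 pairs). Elavl4 minus Elavl3 was 1.01 on quiescent array 2, against -2.99 and -3.78 on quiescent arrays 1 and 3. On array 2 Elavl2 and Elavl4 were highest and Elavl3 and Ptbp1 lowest among quiescent arrays.

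Qk, which acts in glial splicing and message stability, was called by some probe sets and not by others. The brightest, 1451179_a_at, read 13.05, 12.78 and 12.90 on activated arrays and 12.14, 13.07 and 12.77 on quiescent arrays. The groups overlapped, with a difference of 0.25 ± 0.28 (adjusted p = 0.496), and Qk was therefore not called as a gene. The second brightest, 1417073_a_at, read 11.89, 11.88 and 11.78 on activated arrays and 13.65, 13.31 and 13.57 on quiescent arrays. It fell by 1.66 ± 0.22, or 3.15-fold (adjusted p = 0.000394), with no overlap.

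In all, 5 of the 7 Qk probe sets fell, by 1.62 to 2.24 (adjusted p from 0.000394 to 0.00505), and in each the groups did not overlap. Probe set 1429735_at read 8.85, 8.52 and 8.44 on activated arrays and 10.76, 10.33 and 10.86 on quiescent arrays, a fall of 2.05 ± 0.33. Probe set 1425597_a_at fell by 1.62 ± 0.30, 1429736_at by 1.98 ± 0.42 and 1441964_at by 2.24 ± 0.43. The other two, 1451179_a_at and 1429318_a_at, differed by 0.25 and 0.48 and were not called. These 5 calls held without any single array. After scaling to the hybridisation controls, calls remained for 1417073_a_at and 1429735_at, while the adjusted p of the others was 0.0644 to 0.112.

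Within arrays, where a constant scaling cancels, the 5 falling probe sets fell by 1.87 to 2.49 relative to 1451179_a_at, with no overlap between groups. For 1417073_a_at this within-array value averaged -1.06 on activated arrays and 0.85 on quiescent arrays. Which transcript end each probe set reads was not examined, so the probe sets are not assigned to Quaking isoforms.

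**Figure D4:**
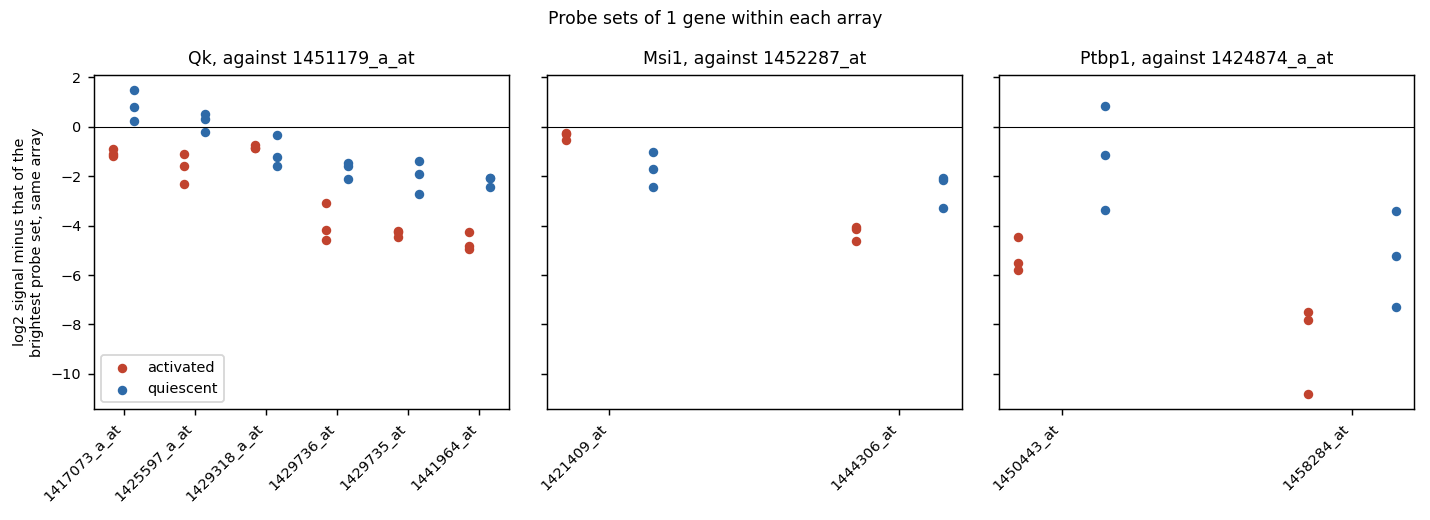
Points give the log2 signal of each further probe set of Qk, Msi1 and Ptbp1 minus that of the gene's brightest probe set on the same array, activated in red and quiescent in blue. The 5 Qk probe sets that fell sit lower on activated arrays, 1429318_a_at does not, and the Msi1 probe sets separate in opposite directions.

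Markers of mature oligodendrocytes, and of quiescent stem cells and astrocytes, moved in the same direction as those 5 Qk probe sets. Of oligodendrocyte progenitor genes 0 fell and 1 of 5 tested rose, with a median difference of -0.08. Genes of mature oligodendrocytes fell in 11 of 11 tested cases, while 17.6% of all genes were called lower. Among them Aspa, Mag, Mog, Opalin and Ermn passed the brightness filter only through their quiescent arrays, so their place in that count supports nothing. Summed linear signals of the list were 2457 to 6465 on activated arrays and 51468, 22696 and 89044 on quiescent arrays 1 to 3. Aspa, an oligodendrocyte enzyme, fell by 6.69 ± 1.09 (adjusted p = 0.00112), or by 4.77 with values raised to background, since 2 activated arrays were at background. Genes of quiescent stem cells and astrocytes fell in 14 of 14 cases, with sums of 37839 to 51043 on activated and 194044 to 295618 on quiescent arrays. Gjb6 and S100b passed the filter only through their quiescent arrays, so their place in that count supports nothing. S100b was at background on all activated arrays and at least 42.9-fold lower there. Quiescent array 2 was the lowest quiescent array in the oligodendrocyte sum, in 1417073_a_at and in 1429735_at. The other falling Qk probe sets, 1425597_a_at, 1429736_at and 1441964_at, were lowest on quiescent array 1, and 1441964_at was highest on quiescent array 2. The part of these cells in the Qk differences was not tested.

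Of the other marker lists, 3 of 3 pericyte, 3 of 4 endothelial and 3 of 4 ependymal genes tested were lower. The share of all genes called lower was 17.6%. Vtn and Rgs5 (pericyte), Cldn5, Flt1 and Tek (endothelial) and Ccdc153 and Rsph1 (ependymal) passed the brightness filter only through their quiescent arrays. Their place in these counts supports nothing. Pericyte sums were 159 to 531 on activated arrays and 4493 to 8154 on quiescent arrays, endothelial sums 165 to 250 on activated and 1280 to 3869 on quiescent arrays, and ependymal sums 292 to 476 on activated and 1909 to 2017 on quiescent arrays. Vtn (pericyte), Cldn5 (endothelial) and Ccdc153 (ependymal) fell by 4.15, 4.23 and 3.59 (adjusted p = 0.00366, 0.00119 and 0.00638). Cldn5 was at background on 1 activated array and Ccdc153 on 2, and with values raised to background they differed by -3.97 and -2.93. Microglial sums were 165 to 209 on activated and 348 to 735 on quiescent arrays, with Aif1, C1qa and Trem2 at background on all 6, and Csf1r, the 1 gene tested, differed by -1.28 ± 0.62 (adjusted p = 0.132). Of oligodendrocyte progenitor genes, 1 of 5 tested rose, Olig2 by 3.22 ± 0.67 (adjusted p = 0.00431). The others did not share one direction: Pdgfra, Cspg4, Sox10 and Olig1 differed by 1.40, -2.79, -1.66 and -0.08 and were not called. Gpr17 was too dim to be tested, differed by -4.61 and was at background on all activated arrays. The median of the 5 tested was -0.08.

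Related RNA-binding proteins were examined as 2 further lists. Among other tissue-specific splicing regulators, 24 of 32 were tested, 7 rose and 1 fell, with a median difference of 0.70. Nova2, a splicing regulator of neurons, was 3.12 ± 0.67 higher in activated cells (adjusted p = 0.00509), with 2 quiescent arrays at background. Rbm24, a splicing regulator best known in muscle, was 2.81 ± 0.52 higher (adjusted p = 0.00238), with 1 quiescent array at background. Raver1, a partner of PTBP1, read 11.32, 11.46 and 11.24 on activated arrays and 8.93, 9.79 and 9.58 on quiescent arrays, a rise of 1.91 ± 0.31 (adjusted p = 0.00117). Mbnl2, a muscleblind splicing factor of differentiated cells, fell by 2.12 ± 0.27 (adjusted p = 0.000258). The widely expressed Hu protein gene Elavl1, chosen after its values were seen, read 12.30, 12.14 and 12.41 on activated arrays and 10.70, 11.25 and 11.22 on quiescent arrays. It rose by 1.23 ± 0.26 (adjusted p = 0.00479).

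Among other regulators of translation and message stability, 29 of 38 were tested, 11 rose and 7 fell, with a median of 0.64. Pabpc1, the cytoplasmic poly(A)-binding protein, was 3.20 ± 0.32 higher (adjusted p = 7.84e-05). The poly(C)-binding protein genes Pcbp4 and Pcbp3 were 1.95 ± 0.58 and 1.89 ± 0.46 higher (adjusted p = 0.0243 and 0.0101). Pcbp4 no longer passed when any one of the arrays other than quiescent array 3 was left out (adjusted p from 0.0584 to 0.0965). Samd4, a translational repressor, fell by 3.68 ± 0.86 (adjusted p = 0.00805), with 1 activated array at background. The 4 cytoplasmic polyadenylation element-binding genes, Cpeb1 to Cpeb4, were singled out after their values were seen. Each fell, by 2.56, 2.15, 2.33 and 2.12, with no overlap between groups (adjusted p from 0.00232 to 0.0139). Over both lists 26 of 53 genes were called, or 49.1%, against 34.9% of all genes. Samd4 and Cpeb1, with activated means of 4.18 and 5.46, passed the brightness filter only through their quiescent arrays. Their place in these counts supports nothing.

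**Figure D5:**
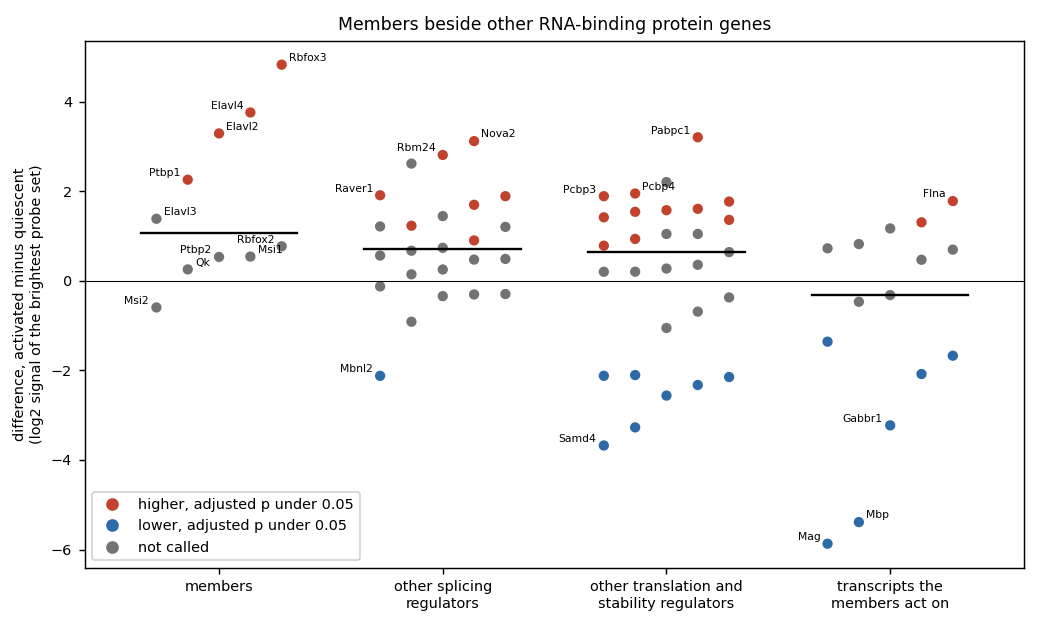
Points give activated minus quiescent log2 signal of the tested genes in 4 lists, coloured by call in the limma fit, with bars at the list medians. Member values run from -0.60 for Msi2 to 4.82 for Rbfox3, and the 2 lists of other RNA-binding proteins hold genes called in both directions.

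Transcripts that the members are known to bind or splice were listed to set beside them, although array signal shows total abundance and not splicing. Of 15 tested 2 rose and 6 fell, with a median of -0.32, while 17.3% of all genes were called higher and 17.6% lower. Mag and Ank3, among those that fell, passed the brightness filter only through their quiescent arrays, so their place in that count supports nothing. The myelin genes Mag and Mbp, bound by Quaking, fell by 5.87 ± 1.29 and 5.39 ± 1.00 (adjusted p = 0.00574 and 0.00231), and both also belong to the oligodendrocyte markers. Mag was at background on 2 activated arrays, and differed by -4.66 with values raised to background. Gabbr1, a GABA receptor subunit gene spliced under PTBP1 control, fell by 3.23 ± 0.33 (adjusted p = 0.000102). Flna, a filamin with a PTBP1-regulated exon, was 1.78 ± 0.31 higher (adjusted p = 0.00176). Numb, the classical translational target of Msi1 and chosen here after its values were seen, read 7.75, 8.07 and 8.43 on activated arrays and 10.07, 9.66 and 9.53 on quiescent arrays. It fell by 1.67 ± 0.38 (adjusted p = 0.00704).

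Among all tested genes, the one whose values correlated best with a member over the 6 arrays was Rrm1 for Elavl4 (Pearson r = 0.999), Lsm8 for Elavl2 (0.998), Zfp395 for Elavl3 (0.986) and Lrp8 for Rbfox3 (0.996). For the others it was Mcrip1 for Ptbp1 (0.998), Zbtb46 for Ptbp2 (0.990), Pcsk5 for Rbfox2 (0.992), Cep57 for Msi1 (0.998), Wsb1 for Msi2 (0.991) and Scaf1 for Qk (0.992). These are the highest of 11574 correlations each over arrays that share their groups and scaling, and they are given as a description.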

How the data were processed

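Labels and the submitters' processing notes state that total RNA (miRNeasy) went through NuGEN Pico amplification and biotin labelling before hybridisation to one-colour Affymetrix arrays. The deposited values are log2 signals computed by the authors with MAS5, per the submitters' processing notes, with no version stated there. Each array's values had been scaled to a linear 2% trimmed mean of 500.0. The number of arrays limits the precision.

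Groups and replicate numbers came from the sample titles. No test included the 64 control probe sets. Of the others, 34945 were paired with 1 gene in the platform annotation, and symbols were updated by Entrez identifier through RefSeq (99.4% found). Values were used as deposited. Genes (by their brightest probe set) and probe sets were tested when their mean reached the 40th percentile, 6.02. The comparison used lmFit and eBayes (trend) of limma 3.58.1 under R 4.3.3, with Benjamini-Hochberg adjustment. Contrasts within arrays used exact permutation tests (scipy 1.17.1). Background was the 95th percentile of the bacterial controls. A gene is given a lower bound on its fold where every array of its lower group was at background.

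Members and lists were chosen with earlier results of these data known. Besides the members, named genes were in each list at most 3 calls in its more frequent direction and 1 call in the opposite one. Also named were the 4 sort genes, the largest difference of each marker list and the most correlated gene of each member. Some but not all markers at background are named, as are some genes that passed the brightness filter through 1 group only. All matched oligodendrocyte progenitor genes are named. Elavl1, Cpeb1 to Cpeb4 and Numb are named outside these rules, after their values were seen. Alternatives were pseudocounts of 16 and 64, quantile and hybridisation-control scaling, values raised to background, other filters, other choices of probe set, no trend, a replicate block, and each array left out.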

Additional observations from a re-analysis of the deposited data

How the results depend on the processing

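Counts are given under settings that moved them by over 1.5 times. Scaling to the hybridisation controls gave 3059 higher and 943 lower genes, against 2004 and 2040, and 76.4% of called genes were then higher, against 49.6%. With it Msi1 (1.18, adjusted p = 0.0197) and Elavl3 (2.03, adjusted p = 0.0162) were also called higher by limma. It left 2 lower member probe sets against 6, and 5 lower genes among other RNA-binding proteins against 8. The mean of probe sets gave 2 members higher (Elavl2 and Elavl4) and 2 lower (Msi2 and Qk), since Rbfox3 then fell under the filter and Ptbp1 changed sign. Quantile normalization and the fit without quiescent array 3 each gave 1 member lower, Msi2.

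With each array left out in turn, genes called higher ranged from 1315 (without activated array 2) to 2440 and genes called lower from 1540 to 2176. Members called higher ranged from 4 to 5 and lower from 0 to 1, and member probe sets from 10 to 13 higher and from 6 to 9 lower. Other RNA-binding proteins ranged from 13 to 20 higher and from 8 to 10 lower. Elavl2, Elavl4, Ptbp1 and Rbfox3 kept their calls without any single array.

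Differences that changed sign were mostly near 0. With the mean of probe sets Ptbp1 differed by -0.22, Qk by -1.26 (adjusted p = 0.00316) and the contrast of Ptbp2 minus Ptbp1 by 0.68. Under scaling to the hybridisation controls Msi2 probe sets differed by 0.048 (1421230_a_at, which stands for the gene), 0.31 (1435521_at), 0.36 (1436818_a_at) and 0.34 (1458136_at). Under quantile normalization 1435520_at differed by -0.079 and 1458136_at by 0.34. With single arrays left out, Msi2 1458136_at ranged from -0.93 to 0.089, Rbfox2 1418245_a_at from -0.20 to 0.81, Qk 1451179_a_at from -0.0034 to 0.46 and Qk 1429318_a_at from -0.044 to 0.89. Each changed sign without quiescent array 1, and Rbfox2 1418245_a_at also without activated array 1 (-0.026). Where no construction of the setting shows it, the cause was not tested.

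The replicate numbers are not said to mark a shared litter or day, and the deviations of same-numbered arrays correlated at 0.056, -0.025 and 0.029. With the replicate block 4 members were higher and 0 lower, as without it, and member probe sets were 11 higher and 7 lower, without Elavl3 1455484_at (adjusted p = 0.0526 in limma) and with Ptbp1 1450443_at (adjusted p = 0.0387). Signals near background limit Rbfox3 and the dim probe sets.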
